A study of Oryctolagus cuniculus with 6 samples.

Results

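Wnt ligands, their frizzled and LRP receptors, and the secreted proteins that block or boost them were followed in healing rabbit skull defects, with and without HPD, human dentin ground to particles and used as a bone graft. Members were all array probes whose description held "wingless", "frizzled", "dickkopf", "sclerostin", "low density lipoprotein receptor-related protein", "R-spondin" or "dishevelled". This gave 49 probes for 28 genes, of 23396 features on the array, and 26 of the 28 genes passed the filter on low signal (3 or more of the 6 arrays well above background), as did 20247 features in all. In male New Zealand White rabbits, 4 months old, 4 round holes 5 mm wide were drilled in the parietal bone of each of 24 animals. HPD (0.2 g) went into both holes on the right (the HPD group), and the others were left empty (the Control group). The newly formed tissue was profiled on 1 array for HPD and 1 for Control on each of days 3, 5 and 7, and whether an array pooled several animals is not given in the sources used here. Both groups were wounded in the same way and differed by the graft and by the side of the skull, so graft and side cannot be told apart.

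A Wnt protein is a secreted, lipid-carrying signal that binds a frizzled receptor together with the co-receptor LRP5 or LRP6. The signal passes through dishevelled proteins and spares beta-catenin from breakdown, so that it can switch on target genes in the nucleus. In bone, this route favours osteoblasts, the cells that lay down matrix. Dickkopf proteins and sclerostin bind the co-receptors and block the signal, secreted frizzled-related proteins bind the Wnt ligands themselves, and R-spondins keep frizzled receptors on the cell surface and so strengthen the signal.

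SFRP2 had the largest difference over time, and probes of SFRP2, FRZB and LRP4 are printed because their coordinates cover more genome than their 60 bases, as a probe across an exon junction of spliced RNA does. They run 5′ to 3′ as the array lists them, with oryCun2 coordinates on the minus strand. Capitals mark the run that the 2 probes of a gene share, 52 bases for SFRP2 and 30 bases for FRZB, because probes that overlap in this way do not measure a gene independently. LRP4 had 1 probe, which has no capitals.
SFRP2 A_04_P003713, chr15:10012071-10012130: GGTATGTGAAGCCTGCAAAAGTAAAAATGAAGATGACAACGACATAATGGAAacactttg
SFRP2 A_04_P003714, chr15:10012079-10014323: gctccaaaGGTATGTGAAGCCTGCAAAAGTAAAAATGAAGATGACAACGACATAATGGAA
FRZB A_04_P004281, chr7:122925181-122928154: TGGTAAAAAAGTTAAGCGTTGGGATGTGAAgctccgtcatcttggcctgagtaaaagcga
FRZB A_04_P004282, chr7:122925211-122928184: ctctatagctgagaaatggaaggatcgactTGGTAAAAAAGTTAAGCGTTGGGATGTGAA
LRP4 A_04_P100792, chr1:186226345-186228727: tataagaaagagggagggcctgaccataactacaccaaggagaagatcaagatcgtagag
The first SFRP2 probe lies in a single block, as does the brightest SFRP2 probe, which gave the gene's values and is not printed. The second crosses 2185 bases of genome that are not in the probe, the FRZB probes cross 2914 and the LRP4 probe crosses 2323.

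Levels below are log2 signal relative to the 75th percentile of the same array, so 0 is the level of that percentile, and they are compared between arrays and not between genes. Between 78.1% and 86.4% of spots were well above background on an array, and 0 spots were saturated. Both day 3 arrays lay on 1 slide and the 4 arrays of days 5 and 7 on another, so slide cannot be told apart from day 3 against the later days, while HPD against Control on a day, and day 7 against day 5, were compared within 1 slide. The lowest level counted as well above background was -5.40, -4.98 and -4.92 on the HPD arrays of days 3, 5 and 7, against -6.45, -6.24 and -6.13 on the Control arrays. The standard deviation of negative control spots, in intensity units, was 6.42, 12.99 and 5.78 on the HPD arrays, against 7.36, 0.32 and 0.11 on the Control arrays. On days 5 and 7 this noise was larger on the HPD array, which limits HPD minus Control for dim members. Its part in their differences was not tested. Correcting background with the normexp model moved the median HPD minus Control difference of all features from 0.14, 0.09 and 0.06 on days 3, 5 and 7 to 0.09, -0.10 and 0.02. The normexp setting also adds a fixed offset to every signal, which shrinks log2 differences of dim members by construction. A smaller difference of a dim member under normexp therefore does not show by itself that the difference is unstable. In these bulk samples fewer cells of a type and less RNA per cell cannot be told apart.

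Of the Wnt ligands, 9 of 11 were tested, and WNT3 had the smallest unadjusted p for HPD minus Control. WNT3, a ligand of the beta-catenin route, had a level of -2.26, -1.90 and -1.79 in HPD defects on days 3, 5 and 7, against -2.77, -2.51 and -2.50 in Control defects. Every HPD array lay above every Control array. The HPD level was 1.43-fold above Control on day 3, 1.53-fold on day 5 and 1.63-fold on day 7, a mean log2 difference of 0.61 ± 0.13 (SE of the limma fit over 6 arrays), with an unadjusted p of 0.00765 and an adjusted p of 0.555. The difference was 0.66 in a fit of days 5 and 7 alone. It came from the probe at chromosome 19, 45863261 to 45863320. The other WNT3 probe, at 45863406 to 45863462, differed by -0.07, 0.27 and -0.77 on the 3 days and so did not go the same way, and the mean of both probes gave 0.21. With normexp the mean difference of WNT3 was 0.29.

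No ligand, and no other member, passed an adjusted p of 0.05 for HPD minus Control. The call rate over all 20247 features was 0%, and the smallest adjusted p of any feature was 0.555. At an unadjusted p under 0.05 stood 1 of 26 members (3.85%), WNT3, beside 8.57% of all features.

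WNT16, a ligand known from cortical bone, had levels of -3.70, -4.08 and -3.89 in HPD defects and -4.39, -4.41 and -4.13 in Control defects on days 3, 5 and 7. Its HPD values all lay above its Control values, with a mean difference of 0.42 ± 0.16 (SE, limma over 6 arrays, adjusted p = 0.555). With normexp the day 5 difference had the opposite sign, at -0.21. WNT5B, which acts mainly outside the beta-catenin route, stood at 0.55, 0.55 and 0.55 in HPD defects and at 0.06, 0.57 and 0.04 in Control defects. The HPD level was flat over the days, and the Control level met it on day 5 alone. WNT10B, which promotes osteoblasts, had levels of -3.63, -4.04 and -3.74 in HPD defects, against -4.33, -4.03 and -4.02 in Control defects.

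WNT2B was 0.17, 0.13 and 0.40 higher with HPD on days 3, 5 and 7 on the log2 scale. WNT3A, a classical activator of beta-catenin, had levels of -2.69, -3.12 and -2.88 in HPD defects, against -2.96, -3.03 and -2.88 in Control defects, with no day apart by more than 0.27. WNT8B differed by 0.19, -0.14 and 0.08, and WNT10A by 0.32, -0.48 and -0.09. WNT8A was well above background on 5 arrays and not on the Control array of day 3. On that day it was at least 2.45-fold higher with HPD, though with normexp the log2 difference was 0.33. It differed by -0.58 and -0.12 on days 5 and 7. All 9 tested ligands were higher with HPD on day 3, 3 on day 5 and 6 on day 7, with medians of 0.49, -0.01 and 0.24. Over all features 64.5%, 58.5% and 56.7% were higher on these days. With normexp the ligand counts were 9, 1 and 7, beside 13491, 7107 and 11273 of 20247 features. The ligand medians were then 0.22, -0.21 and 0.04.

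The remaining 2 ligands did not pass the filter on low signal. WNT2 had levels of -5.73, -5.05 and -4.50 in HPD defects and -5.20, -4.34 and -3.22 in Control defects, and this brightest probe was well above background on the Control arrays of days 5 and 7 only. Its other 4 probes were well above background on 2 to 4 arrays. At the brightest probe WNT2 was therefore at least 1.55-fold lower with HPD on day 5 and at least 2.44-fold lower on day 7. With normexp its log2 differences on these days were smaller, at -0.436 and -0.439. All 5 of its probes were lower with HPD on both days, by 0.54 to 1.01 on day 5 and by 1.28 to 1.72 on day 7 on the log2 scale, but they overlap by 56 to 59 bases. On day 3 the brightest probe was lower with HPD by 0.53 and the others were higher by 1.15 to 1.56, near background. WNT7A was well above background on the Control array of day 3 alone, where it was at least 4.93-fold lower with HPD. With normexp that log2 difference was smaller, at -0.845.

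**Figure D1:**
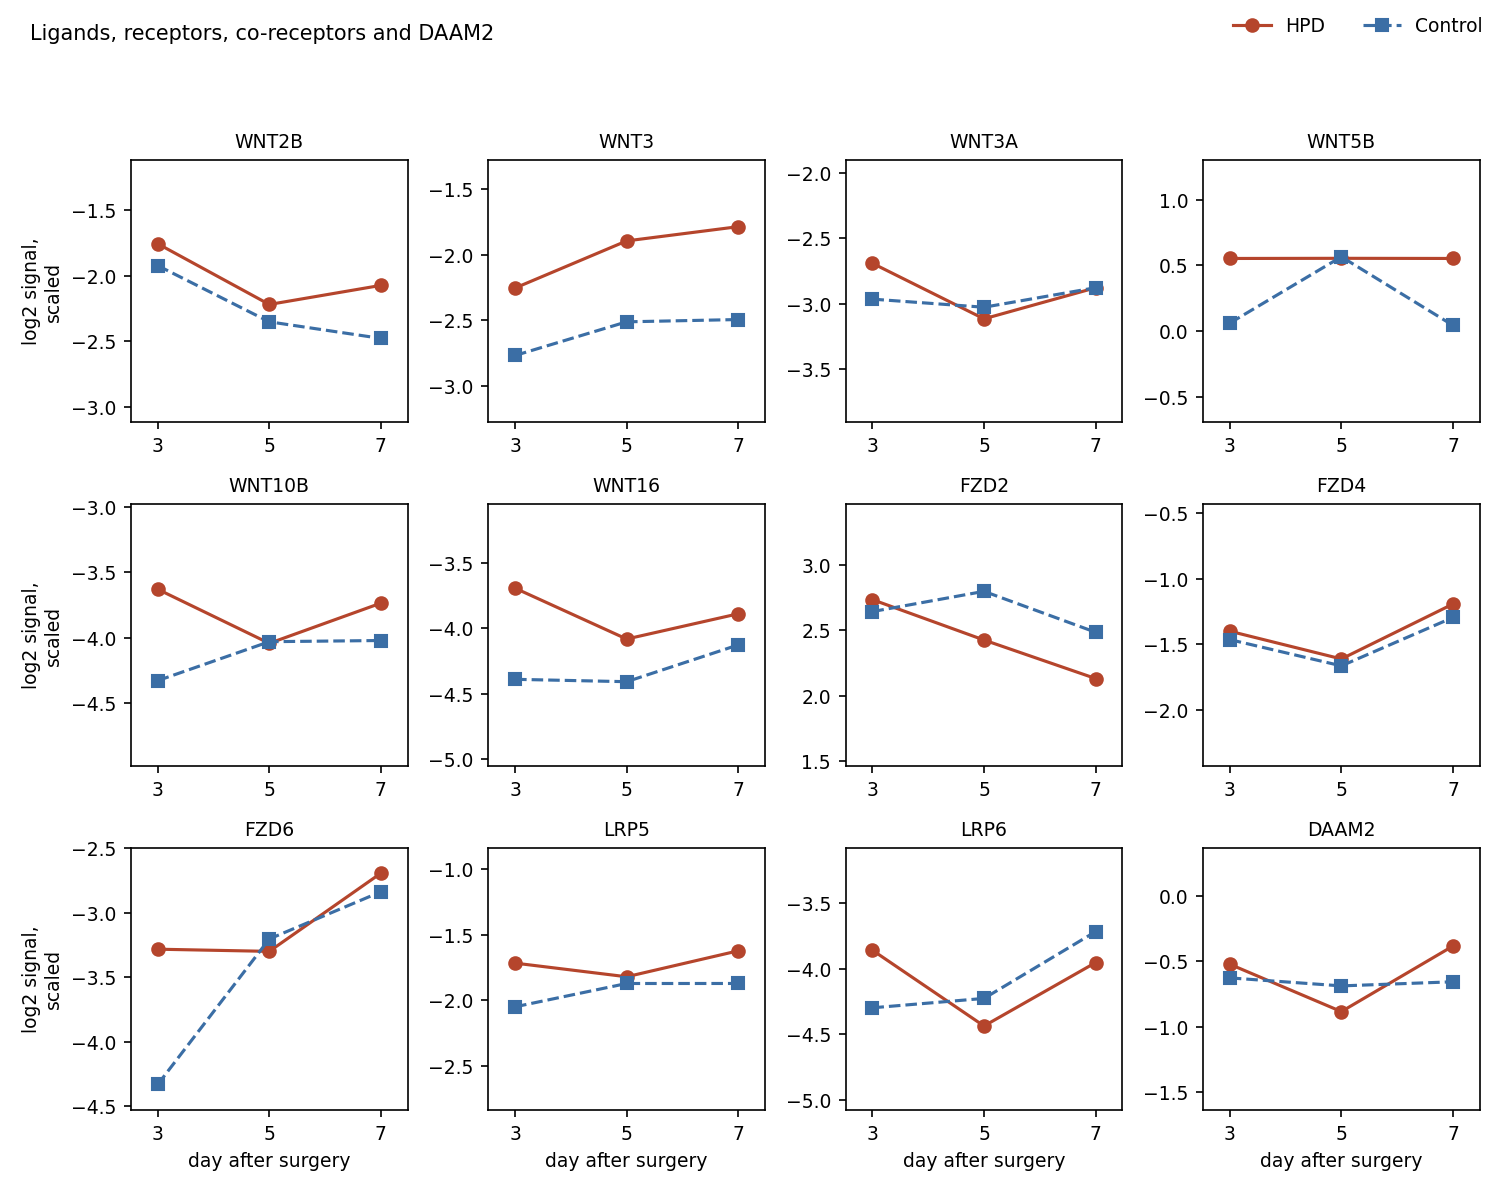
Log2 signal relative to the array's 75th percentile (vertical axes) on days 3, 5 and 7 (horizontal axes) for 6 ligands, 3 frizzled receptors, 2 co-receptors and DAAM2. Each point is 1 array, with HPD as circles and Control as squares. WNT3 and WNT16 lay higher with HPD on each day, and FZD6 on the Control array of day 3 lay below its other 5 arrays.

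Among the receptors, FZD2, FZD4 and FZD6 were on the array and all 3 were measured on all arrays. FZD6, a receptor tied to planar polarity of cells, had levels of -3.28, -3.30 and -2.69 in HPD defects on days 3, 5 and 7, against -4.33, -3.20 and -2.84 in Control defects. The Control array of day 3 was the low one. On that day FZD6 was 2.07-fold higher with HPD, and the differences on days 5 and 7 were -0.10 and 0.14. FZD6 was the 1 member measured on both arrays that was at least 2-fold higher on day 3, beside 3.58% of 19729 such features, and 0 members were at least 2-fold lower, beside 2.91%. With normexp its day 3 difference was 0.37.

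FZD2 had levels of 2.73, 2.43 and 2.13 in HPD defects, against 2.64, 2.80 and 2.49 in Control defects. It was lower with HPD on days 5 and 7, by 0.37 and 0.35, with a mean difference of -0.21 ± 0.16 over the 3 days (SE, limma over 6 arrays, adjusted p = 0.635). FZD4, a receptor needed for vessel growth in the eye, was within 0.10 between the groups on every day. Of the co-receptors, LRP5, whose loss causes fragile bone in people, had levels of -1.72, -1.82 and -1.62 in HPD defects and -2.05, -1.87 and -1.87 in Control defects. LRP6, its close relative, had levels of -3.86, -4.44 and -3.95 in HPD defects and -4.30, -4.23 and -3.72 in Control defects. LRP5 was higher with HPD on each day, though with normexp its day 5 difference was -0.06, and LRP6 was higher on day 3 only.

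LRP4, a receptor that anchors sclerostin in bone, had levels of -3.91, -3.60 and -3.01 in HPD defects on days 3, 5 and 7, against -4.62, -3.17 and -3.84 in Control defects. It was higher with HPD by 0.71 and 0.83 on days 3 and 7 and lower by 0.43 on day 5. Over the days it was lowest on day 3 in both groups. With normexp, whose offset shrinks differences of dim members, the day 7 difference was 0.28.

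Among the tested members, the antagonist DKK1 and the agonist RSPO3 differed most between HPD and Control on a single day, both on day 5. DKK1, a secreted blocker of LRP5 and LRP6 (probe at chromosome 18, 33156307 to 33156366), had levels of -0.70, -1.07 and 0.21 in HPD defects on days 3, 5 and 7, against -0.66, 0.75 and -0.56 in Control defects. In Control defects day 5 was the highest of the 3 days, and in HPD defects it was the lowest. On day 3 the log2 difference was -0.04, while DKK1 was 3.54-fold lower with HPD on day 5. It was 1.70-fold higher on day 7. RSPO3, an R-spondin (chromosome 12, 116730139 to 116730198), had levels of -1.29, -1.17 and -0.38 in HPD defects, against -0.46, 0.36 and -0.99 in Control defects. With HPD it was 1.78-fold lower on day 3 and 2.89-fold lower on day 5, whereas day 7 had it 1.52-fold higher. Under normexp the day 5 differences were -1.499 for DKK1 and -1.24 for RSPO3.

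Among tested members well above background on both arrays, DKK1 and RSPO3 were the 2 at least 2-fold lower with HPD on day 5, beside 1.69% of 19228 features, and 0 members were at least 2-fold higher, beside 4.85%. On day 7, among tested members well above background on both arrays, 0 were at least 2-fold apart either way, beside 1.64% of 18596 features higher and 0.844% lower. Averaged over the days the differences were -0.37 ± 0.53 for DKK1 and -0.59 ± 0.44 for RSPO3 (SE, limma over 6 arrays, adjusted p = 0.792 and 0.629). These means depend on the days that enter: for RSPO3 the value was -0.11 without either day 5 array and -1.18 without either day 7 array, and for DKK1 it was 0.36 without either day 5 array and -0.93 without either day 7 array. Each treatment and day had 1 array, so a change in the HPD difference between days could not be tested.

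As a list, osteoblast and osteocyte genes went the same way as DKK1 and RSPO3 on days 5 and 7. Of 13 such genes tested, 7 were at least 2-fold lower with HPD on day 5, beside 1.69% of 19228 features. The median over the list was -1.26. On that day 4 were higher and 1 of these, MEPE, was 2.52-fold higher (named after its values were seen). All 13 were higher on day 7, beside 56.7% of all features, with a median of 0.45. Their mean level was 1.04, 1.44 and 2.61 in HPD defects on days 3, 5 and 7, against 1.13, 2.34 and 2.02 in Control defects, and all 13 were well above background on every array. OMD, a keratan sulfate protein of bone, had levels of 1.33 and 3.79 in HPD defects on days 5 and 7, against 3.52 and 3.04 in Control defects. DMP1, a matrix protein of osteocytes, had levels of -0.68 and 1.65 in HPD defects and 1.59 and 0.65 in Control defects on these days. The part of these cells in the DKK1 and RSPO3 differences was not tested.

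**Figure D2:**
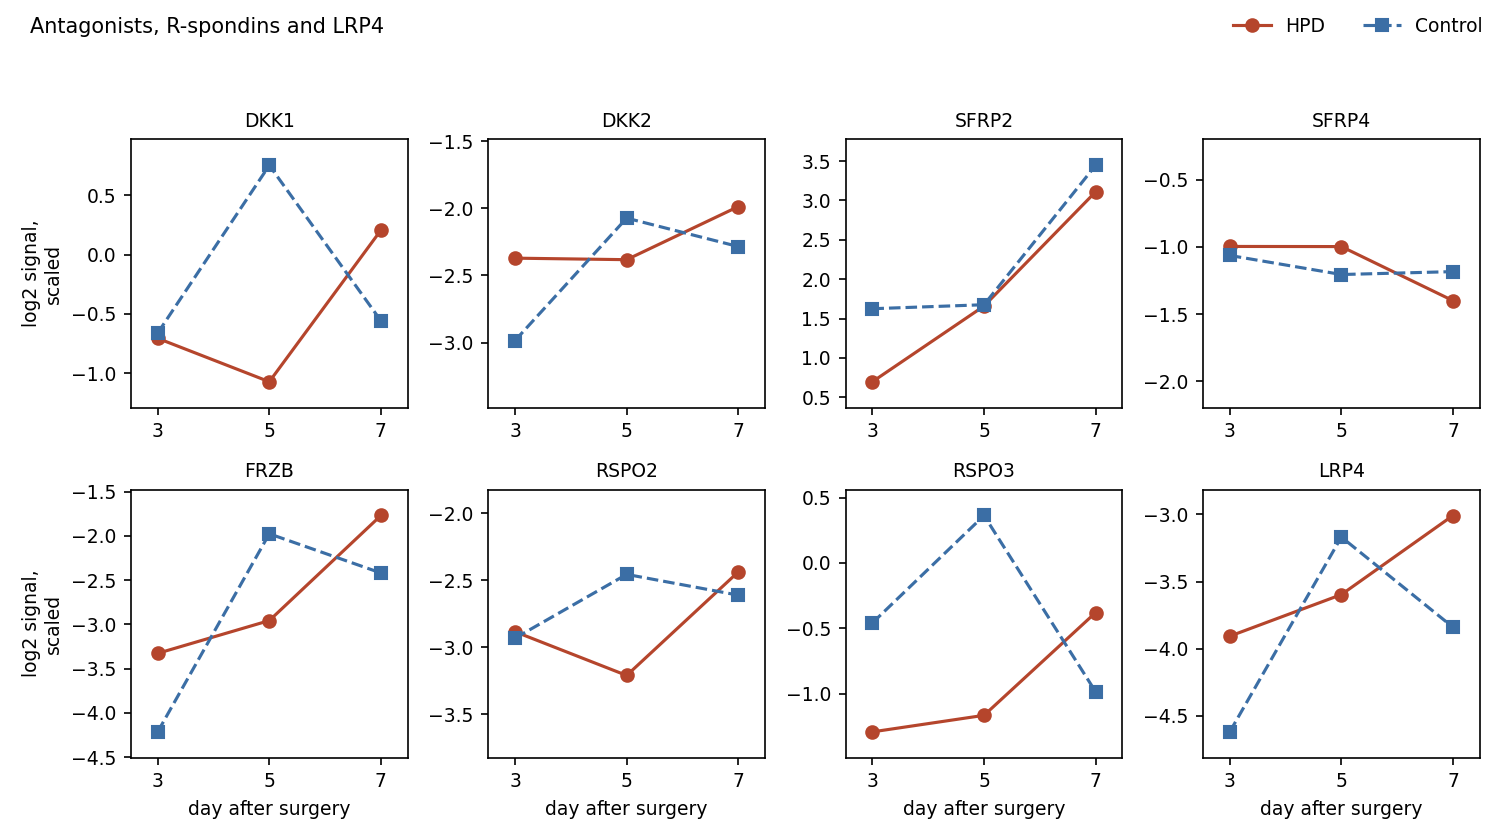
Log2 signal relative to the array's 75th percentile (vertical axes) on days 3, 5 and 7 (horizontal axes) for 5 antagonists, 2 R-spondins and LRP4, with 1 array per point, HPD as circles and Control as squares. SFRP2 was highest on day 7 in both groups, and DKK1 and RSPO3 lay lower in HPD than in Control defects on day 5 and higher on day 7.

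DKK2, a weaker and context-dependent relative of DKK1, had levels of -2.37, -2.38 and -1.99 in HPD defects, against -2.99, -2.07 and -2.28 in Control defects. As for DKK1, the HPD level was below Control on day 5 and above it on day 7, by 0.31 and 0.30. Its 5 probes overlap by 56 to 59 bases and gave day 3 differences of 0.19 to 1.24. SFRP4, a frizzled-related protein whose loss thins the cortex of bone, had levels of -0.996, -0.997 and -1.40 in HPD defects and -1.06, -1.21 and -1.18 in Control defects. Its 2 probes, which do not overlap, had opposite signs on day 5, at 0.21 and -0.24.

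FRZB, also called SFRP3 and known from cartilage and joints, had levels of -3.33, -2.96 and -1.77 in HPD defects, against -4.22, -1.98 and -2.42 in Control defects. The groups swapped order on each step, with HPD 1.85-fold higher on day 3, lower by 1.97-fold on day 5 and again higher, 1.57-fold, on day 7. All 7 FRZB probes were lower with HPD on day 5, by 0.45 to 2.15, and higher on day 7, by 0.27 to 1.25. The probe with 2.15 was well above background on 3 arrays only, and 6 pairs of the probes share 30 or more bases. On day 3 the 7 probes ran from -0.14 to 1.76. RSPO2, the second R-spondin, had levels of -2.88, -3.21 and -2.44 in HPD defects and -2.93, -2.46 and -2.61 in Control defects, a day 5 difference of -0.75.

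SFRP2, a secreted frizzled-related protein made by mesenchymal cells, had levels of 0.70, 1.66 and 3.11 in HPD defects on days 3, 5 and 7, against 1.62, 1.68 and 3.45 in Control defects. Both day 7 arrays lay above all 4 arrays of days 3 and 5. The log2 difference between day 7 and day 3 was 2.41 in HPD defects and 1.82 in Control defects, and 2.12 ± 0.27 in the fit (SE, limma over 6 arrays, unadjusted p = 0.000879, adjusted p = 0.118). Day 7 minus day 5, which was measured within 1 slide, was 1.61 ± 0.27 (unadjusted p = 0.00272, adjusted p = 0.522, limma over 6 arrays). The test of SFRP2 for day 7 minus day 3 was passed with normexp, at 1.99 and an adjusted p of 0.0123, and without the treatment term, at an adjusted p of 0.0396. Over all 15 alternatives the difference ran from 1.74 to 2.49.

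The SFRP2 probes printed above and the other probes of the gene lay close to one another over time. All 6 probes of the gene had a day 7 minus day 3 difference between 1.81 and 2.15, and a day 7 minus day 5 difference between 1.43 and 1.62. On day 3 SFRP2 was 1.90-fold lower with HPD, and its 6 probes ran from -1.18 to -0.69. For day 7 the probes disagreed. The brightest, at chromosome 15, 10007332 to 10007391, gave -0.34, and the others gave 0.17 to 0.66, all higher with HPD. On day 5 the probes ran from -0.05 to 0.57. The mean of probes gave -0.91, 0.18 and 0.25 on days 3, 5 and 7. The mean HPD difference of -0.43 ± 0.22 (SE, limma over 6 arrays, adjusted p = 0.564) was -0.18 in a fit of days 5 and 7 alone.

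For day 7 minus day 3 the members called numbered 0, beside 0.00494% of all features. At an unadjusted p under 0.05 there were 3 of 26 (11.54%), all higher on day 7, beside 20.9% of all features. These were SFRP2, FRZB and FZD6. FRZB differed by 1.56 in HPD defects and 1.80 in Control defects, and by 1.68 ± 0.51 in the fit (SE, limma over 6 arrays, adjusted p = 0.190), or by 1.01 with normexp. Its 7 probes ran from 0.35 to 2.85, the latter at a probe well above background on 3 arrays only. FZD6 differed by 0.59 and 1.50 in HPD and Control defects, and by 1.04 ± 0.33 in the fit (adjusted p = 0.197). Without the Control array of day 3 the fitted difference was 0.53, and with normexp it was 0.67. LRP4 followed at 0.84 ± 0.36 (adjusted p = 0.280).

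At the other end were LRP8, a receptor for reelin and apolipoprotein E, at -0.48 ± 0.27, WNT2B at -0.44 ± 0.17, FZD2 at -0.38 ± 0.20 and LRP10 at -0.28 ± 0.18 (SE, limma over 6 arrays). LRP8 had levels of -3.34, -4.18 and -3.74 in HPD defects and -3.97, -4.10 and -4.54 in Control defects on days 3, 5 and 7. WNT2B had levels of -1.76, -2.22 and -2.07 in HPD defects and -1.92, -2.35 and -2.48 in Control defects, so that both day 3 arrays were its highest. LRP10 had levels of -1.33, -1.48 and -1.56 in HPD defects and -1.30, -1.78 and -1.65 in Control defects. LRP8, LRP10 and LRP3 entered through their family name, and their main known roles lie outside the Wnt route.

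Of the 26 members, 11 were higher and 5 were lower on day 7 than on day 3 in both groups, and the other 10 went one way in HPD and the other way in Control defects. The same shares were not counted over all features, so these counts cannot be set against the array as a whole. The median day 7 minus day 3 difference was 0.12 over members and -0.01 over all features. For day 5 minus day 3 the members called numbered 0, beside 0.00494% of all features, with 0 of 26 at an unadjusted p under 0.05, beside 16.4%. For day 7 minus day 5 they also numbered 0, beside 0% of all features, and SFRP2 was the 1 member at an unadjusted p under 0.05, beside 8.09%.

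**Figure D3:**
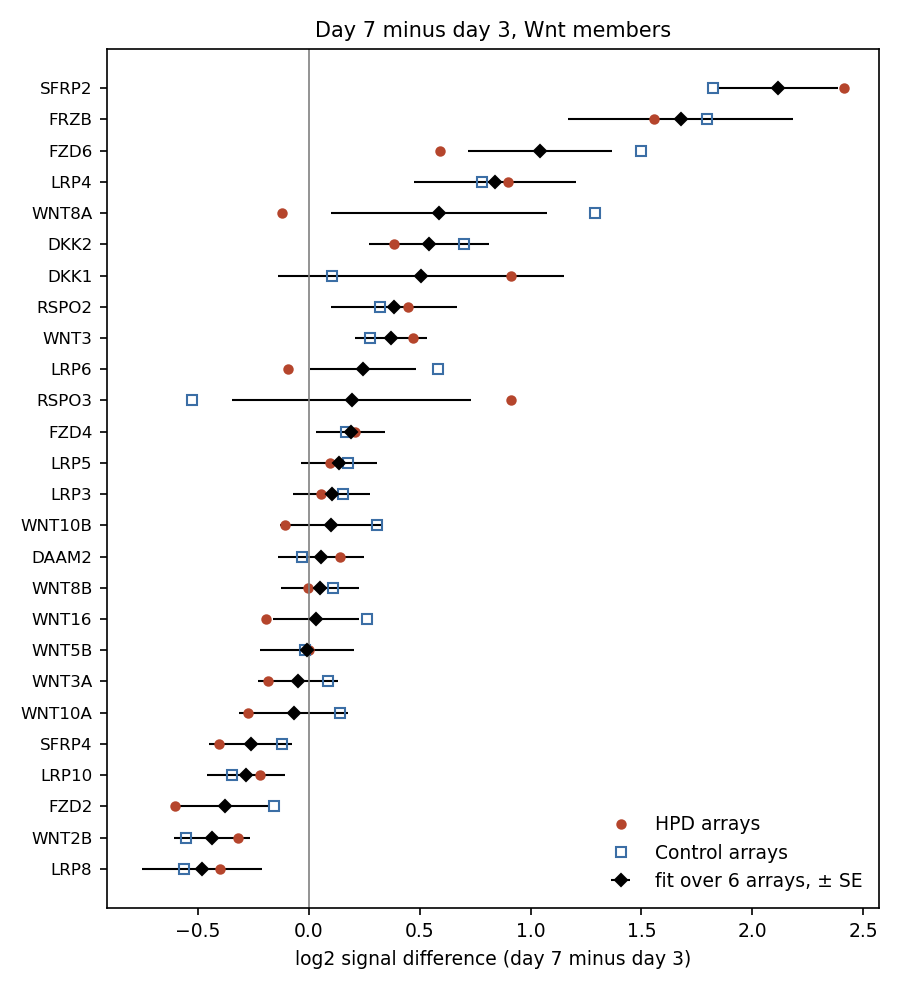
Log2 difference between day 7 and day 3 (horizontal axis) for the 26 tested members (vertical axis). Diamonds with bars are the limma estimate over 6 arrays ± SE, filled circles the HPD arrays and open squares the Control arrays. SFRP2 at 2.12 and FRZB at 1.68 lie farthest to the right, and for RSPO3 the groups have opposite signs.

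Markers of other cells also differed between the days. The 11 tested genes of periosteum, fibroblasts and meninges had a median of 1.12 for day 7 minus day 3, with 7 at an unadjusted p under 0.05, and their mean level was 1.36, 1.85 and 2.51 in HPD defects on days 3, 5 and 7, against 1.05, 2.25 and 2.95 in Control defects. In the 13 osteoblast and osteocyte genes the median was 1.35, again with 7 at an unadjusted p under 0.05. Over all features 20.9% stood at that threshold. Among 7 neutrophil genes the median was -4.81, with mean levels of 3.93, 1.87 and 0.996 in HPD defects and 5.41, 1.01 and -0.15 in Control defects. In none of these lists was a gene called, and the part of any of these cells in the SFRP2 and FRZB differences was not tested. The 6 tested defining genes of neurons were dim, with a mean level of -4.66 to -3.72 on an array. Of these 6 genes, 2 to 6 were well above background on an array.

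Set side by side, 22 of the 26 members were higher with HPD on day 3, 8 on day 5 and 19 on day 7. That is 84.6%, 30.8% and 73.1% of members, beside 64.5%, 58.5% and 56.7% of all tested features. The median differences were 0.33, -0.09 and 0.24 for members and 0.14, 0.09 and 0.06 for all features. Each array was also scaled to its median in place of the 75th percentile. This gave 16, 5 and 17 members higher, beside 9428, 9421 and 9132 of 20247 features. All features then had medians of -0.03, -0.04 and -0.04. A course of higher, lower and higher over the 3 days was shown by 10 members (38.5%), beside 14.5% of all features. They were WNT5B, WNT8B, WNT10B, FZD6, LRP4, DKK2, FRZB, RSPO2, DAAM2 and LRP8. The count took the sign alone, for members and for all features. On day 5 WNT5B and WNT10B each differed by only -0.01, LRP8 by -0.08 and FZD6 by -0.10, so for these the day 5 step was close to no difference. Members higher on all 3 days numbered 6 (23.1%), namely WNT2B, WNT3, WNT16, FZD4, LRP5 and LRP3, beside 26.4% of all features. SFRP2 was the 1 member (3.85%) lower on all 3, beside 11.009% of all features. Here too some day 5 differences were small, at 0.01 for LRP3, 0.05 for FZD4 and LRP5, and -0.02 for SFRP2. With normexp, members higher on all 3 days were WNT3 and LRP3 alone, and 0 were lower on all 3. The order higher, lower, higher was then shown by 15 members. Normexp also moved all features, with 13491, 7107 and 11273 of 20247 higher on days 3, 5 and 7. The share of all features with that order was not counted under normexp. On day 3, 6 tested red cell genes had a median of -1.93 with HPD and 7 neutrophil genes one of -1.53. The 11 tested macrophage and osteoclast genes had a median of 0.76 on that day, with 8 higher and 3 lower. Of these 11, 5 were at least 2-fold higher, beside 3.58% of 19729 features, and 0 at least 2-fold lower. The part of these cells in the members' day 3 differences was not tested. DAAM2, a formin that binds dishevelled, had differences of 0.10, -0.20 and 0.27. Genes measured on the same arrays are not independent of each other.

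**Figure D4:**
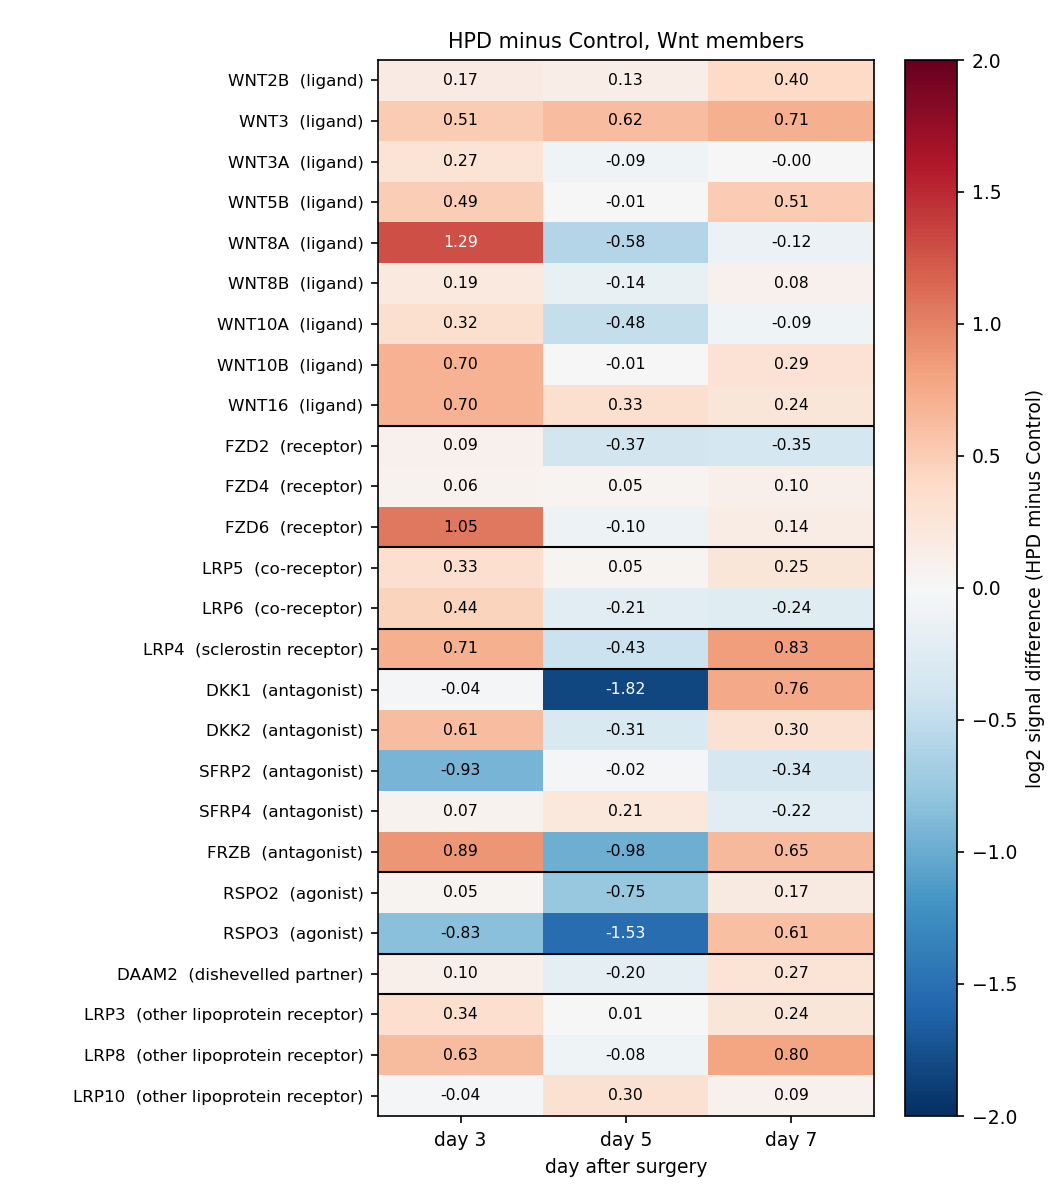
Log2 signal difference, HPD minus Control, on days 3, 5 and 7 (columns) for the 26 tested members (rows, grouped by role), with the value in each cell. Red is higher and blue lower with HPD. The day 5 column holds the lowest values, -1.82 for DKK1 and -1.53 for RSPO3, and WNT8A on day 3 was not well above background on the Control array.

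Genes with several probes show how far a difference depends on the probe. All 6 such members are plotted by probe. SFRP2 on day 3 and for day 7 minus day 3, and FRZB on days 5 and 7, had 1 sign at all their probes, though some of these overlap. Both signs were seen for WNT3 on days 3 and 7, SFRP2 on days 5 and 7, SFRP4 and DKK2 on day 5, and FRZB and WNT2 on day 3. The other 22 members had 1 probe each, so no such comparison was possible for DKK1, RSPO3, FZD6 or LRP4.

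**Figure D5:**
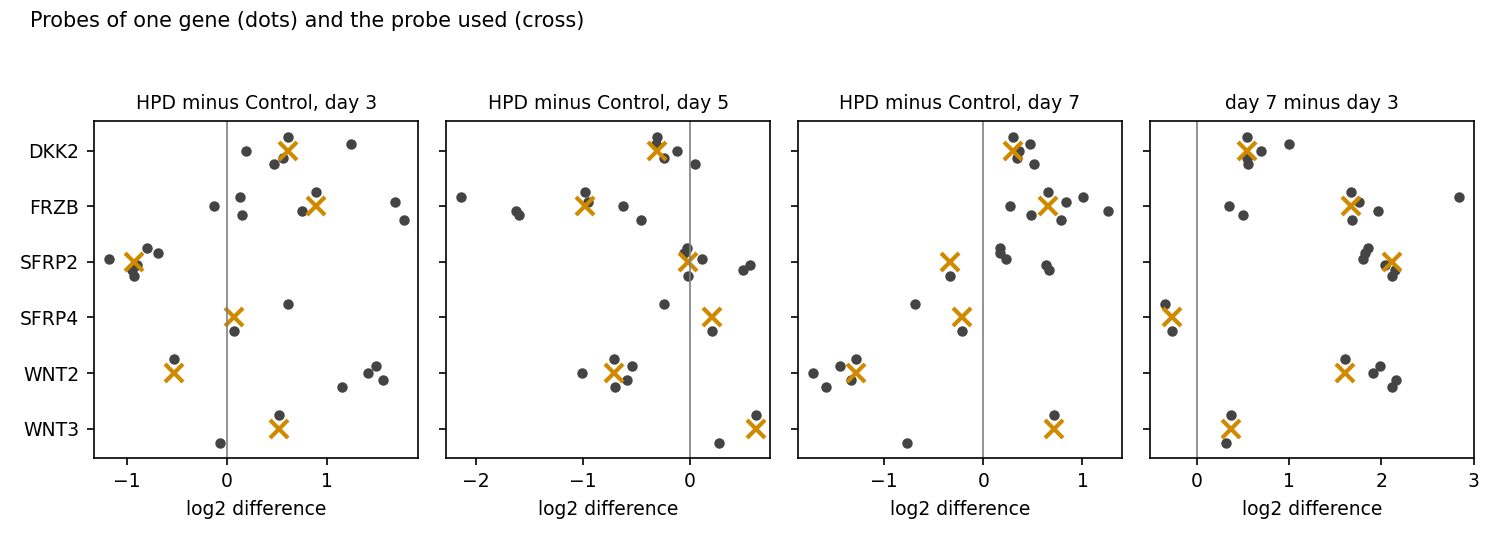
Log2 differences (horizontal axes) of each probe (dots) of the 6 members with more than 1 probe (rows), with the probe used for the gene as a cross. The first 3 panels show HPD minus Control by day and the last shows day 7 minus day 3. All SFRP2 probes lie between 1.81 and 2.15 in the last panel.

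Several Wnt genes were on the array under descriptions without the search words and are not counted as members. WNT5A, a ligand of the route outside beta-catenin, had levels of -3.21, -3.87 and -3.58 in HPD defects on days 3, 5 and 7, against -4.16, -4.15 and -4.33 in Control defects. Every HPD array lay above every Control array, with a mean difference of 0.66 ± 0.18 (SE, limma over 6 arrays, unadjusted p = 0.0191, adjusted p = 0.555). With normexp the day 5 difference of WNT5A had the opposite sign, at -0.24. WNT11 differed by 0.44, -0.26 and 0.43 on the 3 days. SOST, which encodes sclerostin, an osteocyte blocker of LRP5 and LRP6, had levels of -3.60, -3.47 and -3.27 in HPD defects, against -3.63, -3.77 and -3.31 in Control defects, and the groups were within 0.29 on every day.

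Of the other genes of the pathway (transducers, transport proteins, further receptors and inhibitors), 34 were tested. Of these, 27 (79.4%) were higher with HPD on day 3, 15 (44.1%) on day 5 and 21 (61.8%) on day 7. The shares over all features were 64.5%, 58.5% and 56.7%. The medians of the list were 0.32, -0.12 and 0.12. None was called for HPD minus Control. At an unadjusted p under 0.05, beside 1452 of 20247 features higher, stood 3 of the 34. These were PORCN, the enzyme that adds the lipid to Wnt proteins, at 0.42, PRICKLE2, of the planar polarity route, at 0.42, and SOSTDC1, a relative of sclerostin, at 0.46. For day 7 minus day 3, none was called. At an unadjusted p under 0.05, 3 were higher and 3 lower, beside 2175 and 2051 of 20247 features. PTK7, a Wnt co-receptor, differed by 1.12 and LEF1, a nuclear partner of beta-catenin, by 0.85, while KREMEN1, a receptor for dickkopf proteins, differed by -0.90 and the kinase gene CSNK1D by -0.81.

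Genes known as transcriptional targets of beta-catenin numbered 15 tested, some of them also in the pathway list. On days 3, 5 and 7, 10, 8 and 13 of them (66.7%, 53.3% and 86.7%) were higher with HPD. The shares over all features were 64.5%, 58.5% and 56.7%. Their medians were 0.32, 0.15 and 0.31 for the targets, and no target was called in any comparison. CD44, a hyaluronan receptor, was the 1 target at an unadjusted p under 0.05 for HPD minus Control, at 0.56, beside 8.57% of all features. LEF1 (0.85) and TNFRSF11B, the osteoclast inhibitor osteoprotegerin (0.53), were higher on day 7 than on day 3 at an unadjusted p under 0.05. APCDD1, a Wnt inhibitor, was lower, at -0.49. Over all features, 2175 of 20247 were higher and 2051 lower at that threshold.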

How the data were processed

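Intensity values were deposited by the authors for 6 single-dye Agilent arrays of rabbit tissue. Per the file headers, Feature Extraction 10.5.1.1 detrended them and subtracted background, with oryCun 2 coordinates, and no scaling between arrays is recorded. From the deposited intensity, log2 values were formed and each array's 75th percentile subtracted. Control spots were left out, as were 41 outlier-marked probes. Genes were named from the array's columns and a RefSeq table (23607 of 43603 probes), and FRZB through its accession, since the array calls it FRITZ. The brightest probe stood for a gene, and features well above background on at least 3 arrays were tested. limma 3.58.1 in R 4.3.3 fitted day plus treatment (2 residual degrees of freedom) with Benjamini-Hochberg adjustment over 20247 features at 0.05. The number of arrays limits precision: n = 1 per treatment and day. The residual spread therefore mixes any change of the HPD difference between days with noise of samples and arrays. The p-values do not measure the spread between animals within a treatment and day. An "at least" fold is given where 1 array of a pair was not well above background. It sets the bright value against the dim one, or against the lowest signal well above background where that is higher. These bounds hold for the main background correction and not under normexp. Alternatives were normexp background (offset 50), quantile or median scaling, the mean of probes, other filters, an intensity trend, no block or treatment term, and leaving out arrays or days. Named genes were members that were called, the 4 highest and 4 lowest by moderated t for HPD minus Control and for day 7 minus day 3, and a fixed skeletal set of 23, of which 17 were found by name. Members and lists were chosen with earlier results of these data known. The pipeline was tested on simulated data. Figures used matplotlib 3.10.9.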

Additional observations from a re-analysis of the deposited data

Results flagged for a closer look

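DKK1 and RSPO3 went opposite ways with HPD on days 5 and 7. For DKK1 the HPD minus Control difference was 0.76 on day 7 and -1.82 on day 5, a gap of 2.58 on the log2 scale. For RSPO3 it was 0.61 on day 7 and -1.53 on day 5, a gap of 2.14. Both days were on the same slide. These gaps between days were not tested, because each rests on 1 array per treatment and day.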

How the results depend on the processing

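For HPD minus Control, 0 members and 0 features were called under all 17 alternatives. For this comparison, leaving out 1 array gave the same fit as leaving out its whole day, because the day block then takes up the array that remains. The single-array alternatives for HPD minus Control therefore repeat those without a day and add no separate check. For day 5 minus day 3, 0 members were called under all 15 alternatives, while the 1 called feature became 299 with normexp, 17 without the treatment term, 2 with an intensity trend, and 0 with quantile normalization, without the filter or without day 7, and 0 to 137 when single arrays were left out (137 without the HPD array of day 3). For day 7 minus day 3 the 1 called feature became 1032 with normexp, 382 without the treatment term, 9 with an intensity trend, 5 among features well above background on all arrays, and 0 with quantile normalization, without the filter or without day 5, and 0 to 247 when single arrays were left out (247 without the HPD array of day 3). The members called were 1 (SFRP2) with normexp and 1 without the treatment term. For day 7 minus day 5 the features called were 2 with normexp, 1 with an intensity trend and 3 without the treatment term. Members higher with HPD on day 5 numbered 5 both with normexp and with median scaling, in place of 8. Over all features 7107 and 9421 of 20247 were higher in these settings, in place of 11840. The mean HPD difference of DKK1 was 0.36 without day 5, in place of -0.37, and -0.93 to 0.36 when single arrays were left out (0.36 without either day 5 array). That of FRZB was -0.0039 with normexp, -0.17 in the fit lacking day 3 and -0.0465 in that lacking day 7, against a main value of 0.19, and -0.17 to 0.77 when single arrays were left out (0.77 without either day 5 array). The cause was not tested. Day served as the block, so the HPD and Control arrays of a day were compared as a pair. Pairing by animal was not possible with 1 array per treatment and day. Arrays where a probe is not well above background give bounds only.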
